A study of Mus musculus with 8 samples.

Results

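Oligodendrocyte lineage genes were followed in the cerebral cortex of newborn mice through 9 genes chosen by name: Pdgfra, Cspg4, Olig1, Olig2, Sox10, Nkx2-2, Gpr17, Bcas1 and Mbp. They are 9 of the 53392 genes in the quantification files and hold 49 of the 136202 transcripts, and all 9 had enough reads to be tested. The mutant animals carry the R342X mutation in Phf6, an X-linked gene for a nuclear zinc finger protein, and they were set against wild-type mice. Both genotypes are of the FVB/N strain and were taken at postnatal day 0 (P0), and each is represented by 4 bulk mRNA libraries of whole cortex. The labels number the libraries and do not give sex, litter or animal, so p-values measure the spread between these libraries, which may in part be technical. The question put to these genes was whether precursor genes and myelin genes of the lineage differ between the genotypes.

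Oligodendrocytes make the myelin sheath of axons in the brain. Their precursors arise first in the ventral forebrain and later in the cortex itself, divide under platelet-derived growth factor signalling, and pass through a committed stage before they switch on myelin genes. In the mouse cortex precursors are already spread at birth, while most myelination follows in the weeks after it. In whole tissue, fewer cells of a type and less RNA per cell cannot be told apart.

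The libraries held 30469745 to 39453169 estimated reads in mutants, against 48841467 to 74266937 in wild type, so every wild-type library was the deeper. Phf6 ran from 39.3 to 43.6 CPM (reads scaled to a common library total) in mutant libraries, against 72.1 to 91.9 CPM in wild-type libraries, lower in every mutant library. The cortical neuron genes Neurod2 and Tbr1 were present in every library, at 317 to 408 and 202 to 218 CPM in mutants and at 381 to 451 and 206 to 217.5 CPM in wild type. A principal component analysis of all tested genes outside the lineage lists divided the 8 libraries into 2 sets along its first axis, which carried 35.3% of the variance. Set 1 held mutant libraries 1, 2 and 3 with wild-type library 1, and set 2 held mutant library 4 with wild-type libraries 2, 3 and 4. The labels name no batch, and genotype is unevenly spread over the sets, so the fold change of each member is given with and without the set as a term in the fit.

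Sequence is shown for the genes that the first results turn on. The stretches lie before the start that RefSeq gives for Pdgfra, Cspg4 and Olig2, on the plus strand of GRCm38.p6. For Cspg4 and Olig2 they end just before the first GENCODE start of the gene, which lies upstream of the RefSeq start. The table of promoters held 4 of the 9 members. Capitals mark matches to 4 short motifs searched on both strands: the Sox motif ACAAAG, the E-box CANNTG that proteins of the Olig type bind, the GC box GGGCGG and the TATA box TATAAA. The Pdgfra window is 250 bases, chr5:75152001-75152250. The Cspg4 window is 179 bases, chr9:56864854-56865032. The Olig2 window is 157 bases, chr16:91225300-91225456.
Pdgfra: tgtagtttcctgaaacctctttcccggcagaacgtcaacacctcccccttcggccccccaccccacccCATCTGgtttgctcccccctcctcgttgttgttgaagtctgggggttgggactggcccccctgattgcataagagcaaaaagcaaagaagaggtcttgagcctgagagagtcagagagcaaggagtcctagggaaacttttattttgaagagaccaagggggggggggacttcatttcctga
Cspg4: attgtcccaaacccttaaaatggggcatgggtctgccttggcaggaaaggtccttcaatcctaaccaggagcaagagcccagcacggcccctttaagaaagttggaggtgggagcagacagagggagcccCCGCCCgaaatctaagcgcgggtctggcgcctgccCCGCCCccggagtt
Olig2: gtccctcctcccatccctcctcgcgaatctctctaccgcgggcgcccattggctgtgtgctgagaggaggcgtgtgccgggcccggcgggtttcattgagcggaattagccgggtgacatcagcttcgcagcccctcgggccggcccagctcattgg
The Pdgfra window held 1 E-box, a motif present in 66.2% of 32544 promoter windows of the same length. The Cspg4 window held 2 GC boxes, read on the minus strand, and 21.0% of promoter windows of that length held at least 1. No match was found in the Olig2 window, where 50.8% of windows of that length held an E-box. A match is a description of letters only.

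Pdgfra and Cspg4 encode the surface proteins by which precursors are usually recognised, the alpha receptor for platelet-derived growth factor and the NG2 proteoglycan. Both averaged higher in mutants, by 0.17 and 0.25 on the log2 scale, and neither passed the test over all genes. Pdgfra (chromosome 5, 75152292 to 75198215, plus strand, 23 exons; GRCm38 with GENCODE M21, as for all positions of genes below) had 81.3, 81.0, 78.0 and 84.0 CPM in mutant libraries 1 to 4, against 77.0, 71.6, 71.2 and 68.9 CPM in wild-type libraries 1 to 4. Every mutant library lay above every wild-type library, with a narrow gap between mutant 3 and wild type 1. In TPM the groups overlap, since wild type 1 at 23.5 lay above mutant 3 at 22.4. Mean levels were 81.1 ± 2.46 CPM in mutants, against 72.2 ± 3.43 CPM in wild type (SD, n = 4 each). The log2 fold change was 0.17 ± 0.05 (SE), with an unadjusted p of 0.0058 and an adjusted p of 0.244 in edgeR's quasi-likelihood test. Of all 20097 genes tested, 2.95% had mutant CPM values wholly above the wild-type values, and Pdgfra was the 1 member among the 9 that did. With the library set in the fit the fold change was 0.15 ± 0.05, with an adjusted p of 0.159, and the difference between the sets was 0.03. Mutants exceeded wild type by 0.06 within set 1, where wild type is 1 library, and by 0.25 within set 2, where mutants are 1 library.

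Cspg4 (chromosome 9, 56865033 to 56899870, plus strand, 10 exons) had 24.7, 27.1, 24.1 and 21.4 CPM in mutant libraries, against 22.4, 19.3, 21.4 and 18.9 CPM in wild-type libraries. The groups met at mutant 4, which lay below wild type 1. Mean levels were 24.3 ± 2.34 CPM in mutants, against 20.5 ± 1.71 CPM in wild type (SD, n = 4 each), a log2 fold change of 0.25 ± 0.08 with an unadjusted p of 0.0157 and an adjusted p of 0.283 (edgeR). With the set as a term it was 0.14 ± 0.07, with an adjusted p of 0.377, and set 1 stood 0.21 above set 2. The differences within sets 1 and 2 were 0.17 and 0.11.

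Both genes are also expressed outside the lineage, Cspg4 in pericytes and Pdgfra in meningeal fibroblasts. All 8 pericyte markers were tested and 4 of them had a fold change above 0, as did 50.3% of all tested genes. The pericyte median was 0.01, and 0.09 with the set in the fit. Their summed level in TPM, a unit that is scaled per transcript length, ran from 119 to 160 in mutants and from 120 to 140 TPM in wild type. Of 7 meningeal fibroblast markers, 6 had a fold change above 0, with a median of 0.14, and 0.32 with the set in the fit, and their summed level ran from 170 to 254 TPM in mutants and from 156 to 197 TPM in wild type. One of them, Aldh1a2, makes retinoic acid. With genotype alone its log2 fold change was 0.29 ± 0.12, with an adjusted p of 0.344 (edgeR), and it was not called. With the set in the fit Aldh1a2 was called higher in mutants, at 0.48 ± 0.06 with an adjusted p of 0.011 (edgeR). In that fit 0.602% of all genes were called. It averaged 26.6 ± 3.97 CPM in mutants, against 21.8 ± 3.02 CPM in wild type (SD, n = 4 each). The part of either cell type in the levels of Pdgfra and Cspg4 was not tested.

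A transcript annotated as a retained intron, Cspg4-204, carried nearly as much of Cspg4 as the full coding transcript Cspg4-201. Cspg4-204 had 3.47, 3.83, 3.96 and 3.37 TPM in mutant libraries, against 2.85, 2.98, 2.57 and 2.73 TPM in wild-type libraries. Every mutant library was above every wild-type one, as was the case for 2.44% of the 55749 transcripts tested, and Cspg4-204 was the 1 of 21 tested transcripts of the members with such a gap. Its log2 fold change was 0.36 ± 0.11, with an unadjusted p of 0.0118 and an adjusted p of 0.671 over all transcripts (edgeR). Cspg4-201 averaged 3.66 ± 0.56 TPM in mutants, against 3.04 ± 0.50 TPM in wild type (SD, n = 4 each), a log2 fold change of 0.23 ± 0.13 with an adjusted p of 0.70 (edgeR). The retained-intron transcript made up 46.0 ± 3.63% of Cspg4 TPM in mutants, against 44.1 ± 4.51% in wild type (SD, n = 4 each), shares that overlap. Of its 3267 bases, 2998 lie in Cspg4-201 too, so reads are divided between the pair by a statistical model. The other 269 bases are the intron before exon 9 of 10 in Cspg4-201. Its last 80 bases are shown in lower case with the first 20 bases of exon 9 in capitals, chr9:56896512-56896611 of GRCm38, plus strand, from the GENCODE transcript.
Cspg4-204: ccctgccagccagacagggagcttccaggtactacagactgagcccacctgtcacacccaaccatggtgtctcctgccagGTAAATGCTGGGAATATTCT
Retained-intron transcripts of all genes took 3.67% to 4.16% of reads in mutants, against 3.87% to 4.22% in wild type.

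**Figure D1:**
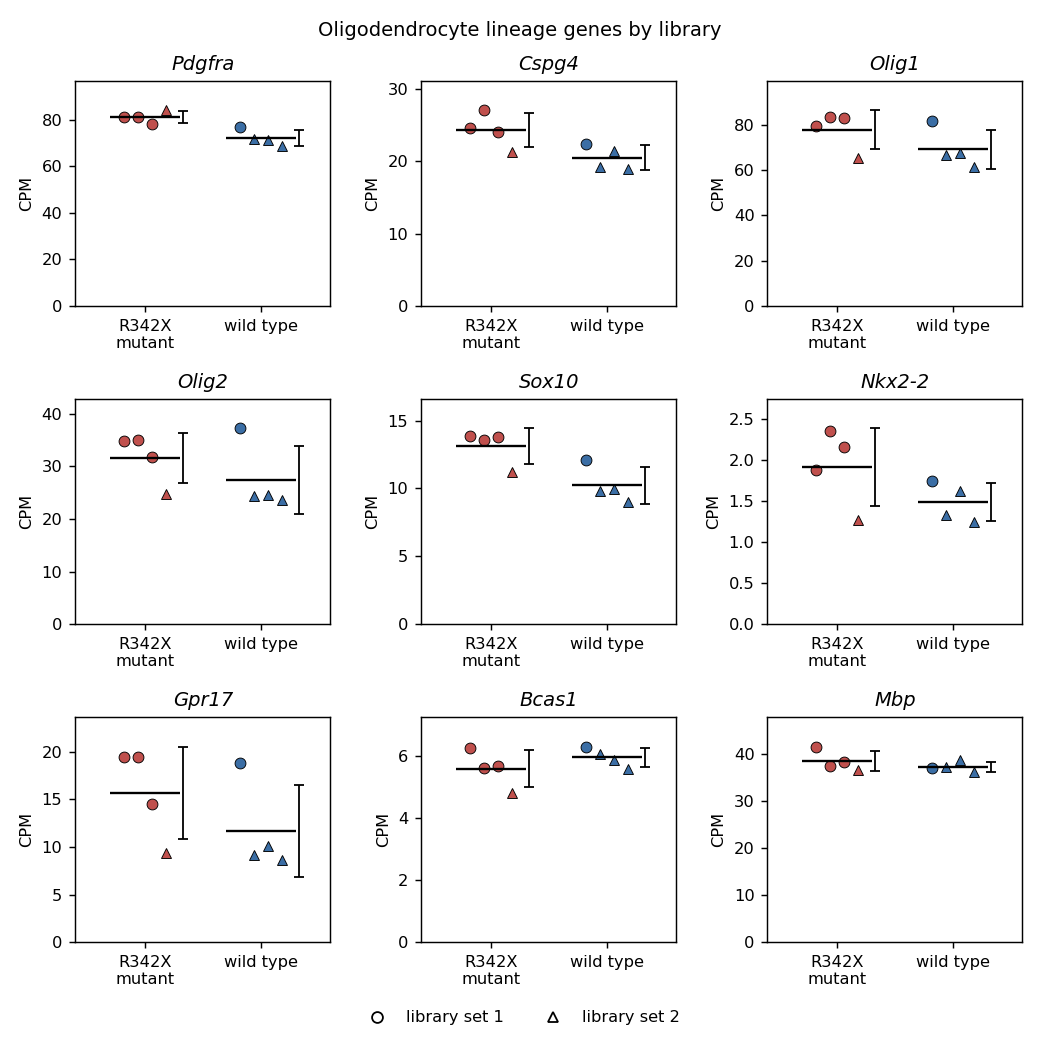
Level of each of the 9 lineage genes in CPM (linear y axis, 1 panel a gene) in R342X mutant libraries (left) and wild-type libraries (right). Each point is a library, circles for set 1 and triangles for set 2, and bars give the mean and SD of 4 libraries. Pdgfra is the gene whose groups do not overlap in CPM, with mutants at 78.0 to 84.0 and wild type at 68.9 to 77.0 CPM.

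The 4 transcription factors of the lineage averaged higher in mutants, by 0.17 to 0.37 on the log2 scale, and in the fit with both terms each differed more between the sets than between the genotypes. Olig1 and Olig2 are basic helix-loop-helix factors, and Olig2 is needed to specify precursors. They lie side by side on chromosome 16, Olig2 at 91225457 to 91228677 with 2 exons and Olig1 at 91269772 to 91271933 with 1 exon, both on the plus strand with 41094 bases between them. Olig1 had 79.5, 83.2, 83.1 and 65.4 CPM in mutant libraries, against 81.4, 66.5, 67.4 and 61.1 CPM in wild-type libraries. Olig2 had 34.8, 35.0, 31.8 and 24.8 CPM in mutant libraries, against 37.2, 24.3, 24.5 and 23.6 CPM in wild-type libraries. For both genes the low mutant was library 4 and the high wild type was library 1, the ones that stand apart from the rest of their genotype on the first principal component.

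The log2 fold change of Olig1 was 0.17 ± 0.10 with an adjusted p of 0.45, and that of Olig2 was 0.21 ± 0.16 with an adjusted p of 0.548 (edgeR). With the set as a term they were 0.01 ± 0.05 and -0.06 ± 0.06, with adjusted p of 0.965 and 0.726, so the direction of Olig2 turned. Set 1 exceeded set 2 by 0.32 for Olig1 and by 0.54 for Olig2 in that fit. Of the 2162 exon bases of Olig1, 157 are shared with Gm15966 on the other strand. Exon bases were shared with genes on the other strand by 4 more members: Pdgfra (456 with Gm42802 and 166 with Gm42803), Nkx2-2 (278 with Nkx2-2os), Gpr17 (188 with Lims2) and Bcas1 (440 with Bcas1os1 and 34 with Bcas1os2). The use of strand in the authors' counting is not given in the sources used here, and without it reads from such bases cannot be told apart.

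Sox10, an SRY-box factor that drives myelin genes and is kept through the whole lineage, had one of the larger differences among the 9 genes. It lies on chromosome 15 at 79154908 to 79165240, minus strand, in 4 exons. Its level was 13.9, 13.6, 13.8 and 11.2 CPM in mutant libraries, against 12.1, 9.80, 9.95 and 9.0 CPM in wild-type libraries. The groups overlap, since wild type 1 lay above mutant 4. Mean levels were 13.1 ± 1.3 CPM in mutants, against 10.2 ± 1.34 CPM in wild type (SD, n = 4 each). The log2 fold change was 0.36 ± 0.11, with an unadjusted p of 0.00727 and an adjusted p of 0.247 (edgeR). With the set in the fit it was 0.20 ± 0.07, with an adjusted p of 0.206, and it was 0.18 within set 1 and 0.22 within set 2, where 1 of the genotypes has a single library each time. Left without mutant library 4, the only mutant library of set 2, Sox10 was called, at a log2 fold change of 0.43 and an adjusted p of 0.0483 (edgeR). In that fit 3.37% of all genes were called, against 0.0199% with all libraries. Its coding transcript Sox10-201 averaged 9.30 ± 1.38 TPM in mutants, against 6.74 ± 0.86 TPM in wild type (SD, n = 4 each), with a log2 fold change of 0.43 ± 0.12 and an adjusted p of 0.671 over all transcripts (edgeR).

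Sox10 is shared with Schwann cells and neural crest, and their markers were low but uneven over the libraries. Of the 5 markers listed, 3 had enough reads to be tested, and Pmp2 had at most 1 read in any library. The summed level of the list was 7.77, 1.89, 2.79 and 2.85 TPM in mutants, against 2.39, 1.83, 1.68 and 2.12 TPM in wild type. Mutant library 1 was the highest in that sum. Without it the log2 fold change of Sox10 was 0.34 (unadjusted p = 0.0228, adjusted p = 0.524, edgeR). The neural crest gene Foxd3, one of the 5, was highest in mutants 3 and 4, at 0.74 and 0.68 CPM. The part of these cells in the level of Sox10 was not tested.

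Nkx2-2, a homeodomain factor of precursors that are about to differentiate, was the least abundant of the 9 genes. It lies on chromosome 2 at 147177546 to 147194243, minus strand, in 2 exons. It had 1.88, 2.35, 2.15 and 1.27 CPM in mutant libraries, against 1.74, 1.33, 1.62 and 1.25 CPM in wild-type libraries. The groups overlap, and mutant 4 lay near the lowest wild-type library. The log2 fold change was 0.37 ± 0.20, with an adjusted p of 0.424, and 0.09 ± 0.18 with the set in the fit (adjusted p = 0.873, edgeR).

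Gpr17 and Bcas1 mark the committed stage between precursor and myelinating cell, and their mean differences had opposite signs. Gpr17, a G protein-coupled receptor that holds back maturation, had 19.5, 19.5, 14.6 and 9.35 CPM in mutant libraries, against 18.8, 9.17, 10.1 and 8.67 CPM in wild-type libraries. Mutants 1 to 3 and wild type 1 were high and the other 4 libraries low, which is the division into sets. Its log2 fold change was 0.43 ± 0.28 with an adjusted p of 0.493, and -0.04 ± 0.11 with the set in the fit (adjusted p = 0.912, edgeR). Set 1 exceeded set 2 by 0.98 on the log2 scale, the largest such difference of the 9 genes. Gpr17 lies on chromosome 18 at 31942997 to 31949636, minus strand, inside the span of Lims2 on the plus strand.

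Bcas1 encodes a protein of early myelinating cells and lies on chromosome 2 at 170346991 to 170427845, minus strand. It had 6.27, 5.64, 5.71 and 4.81 CPM in mutant libraries, against 6.32, 6.08, 5.87 and 5.60 CPM in wild-type libraries. It was the 1 member with a lower mean in mutants, at 5.61 ± 0.60 CPM in mutants, against 5.97 ± 0.31 CPM in wild type (SD, n = 4 each), and the groups overlap. On the TPM scale its mean was 4.73 in mutants, against 4.70 in wild type, so the sign rests on the scale. For Bcas1 the log2 fold change was -0.09 ± 0.10 with an adjusted p of 0.70, and -0.19 ± 0.10 with the set in the fit (adjusted p = 0.425, edgeR).

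Mbp, the gene for myelin basic protein, was nearly level between the genotypes. It had 41.7, 37.5, 38.3 and 36.7 CPM in mutant libraries, against 37.1, 37.2, 38.7 and 36.2 CPM in wild-type libraries. Mean levels were 38.6 ± 2.18 CPM in mutants, against 37.3 ± 1.05 CPM in wild type (SD, n = 4 each). Between the genotypes the log2 fold change was 0.05 ± 0.05, with an unadjusted p of 0.402 and an adjusted p of 0.694, and 0.03 ± 0.05 with the set in the fit (adjusted p = 0.873, edgeR). Without mutant 1, the highest library, it was 0.01.

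The gene sum of Mbp mixes transcripts from 2 start regions, because Mbp lies within a larger unit known as golli whose upstream start is also used in neurons. Mbp lies on chromosome 18 at 82475146 to 82585637, plus strand. Its 4 upstream transcripts start at 82475146 to 82475370 and its 12 classic ones at 82554470 to 82563262, 79324 bases further on. The upstream transcripts had 16.2, 16.2, 15.4 and 15.5 TPM in mutant libraries, against 15.4, 14.8, 15.6 and 14.2 TPM in wild-type libraries. The classic transcripts, which code for the protein of compact myelin, had 6.92, 2.28, 2.55 and 2.82 TPM in mutant libraries, against 2.74, 2.58, 3.03 and 2.78 TPM in wild-type libraries. Upstream transcripts therefore made up most of Mbp in every library, 82.0 ± 8.10% in mutants, against 84.4 ± 0.79% in wild type (SD, n = 4 each). One of them, Mbp-205, alone made up 60.9 ± 7.74% of Mbp TPM in mutants, against 62.2 ± 3.20% in wild type.

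Mutant library 1 was the exception in the classic class, with an upstream share of 70.0%, against 87.7%, 85.8% and 84.6% in mutants 2 to 4 and 84.9%, 85.2%, 83.8% and 83.6% in wild type. It was also the library with a summed level of Schwann and neural crest markers of 7.77 TPM. Schwann cells use the classic Mbp start too, and their part in this value was not tested. Genes of mature myelin sheaths were close to 0: Mobp, Fa2h, Opalin and Mog had at most 20.1, 18, 4 and 8 estimated reads in any library and were not tested.

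**Figure D2:**
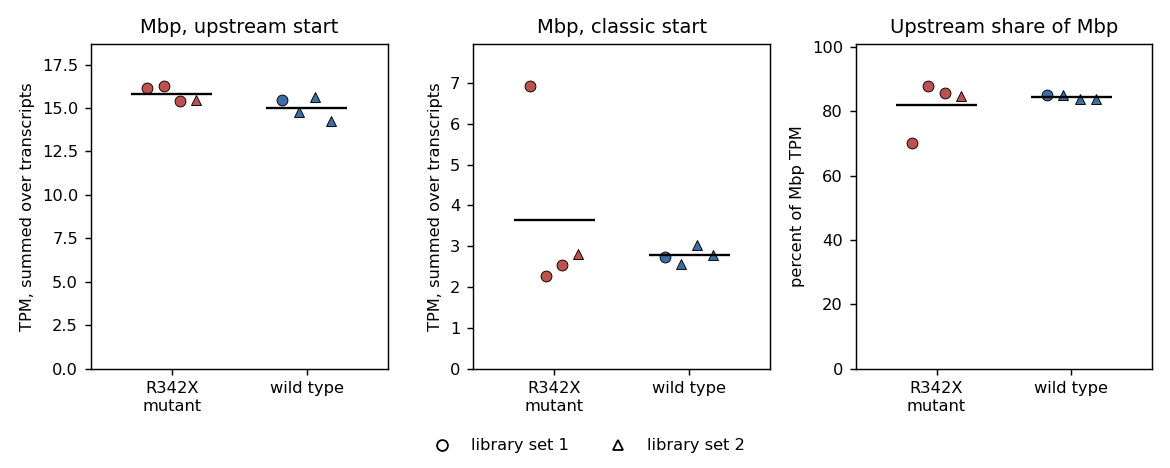
Mbp transcripts by start region, with the summed TPM of the upstream (golli) class, that of the classic class, and the upstream class as a percent of Mbp TPM (linear y axes), in R342X mutant libraries (left) and wild-type libraries (right). Each point is a library, circles for set 1 and triangles for set 2, and lines are group means. Mutant library 1 stands apart in the classic class at 6.92 TPM and in the upstream share at 70.0%, while the upstream class runs from 14.2 to 16.2 TPM over all 8 libraries.

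Across the 9 genes, 8 had a fold change above 0 while 50.3% of all tested genes did, and 0 were called, as were 0.0199% of all genes (4 of 20097). At an unadjusted p under 0.05 there were 3 members, all higher in mutants, against 13.7% of all genes in either direction and 6.89% higher in mutants. DESeq2 called 0 of the 9, with 2.02% of genes called and adjusted p of 0.0586 for Pdgfra, 0.0577 for Sox10 and 0.129 for Cspg4. With the set in the edgeR fit 0 were called, against 0.602% of all genes, and 2 had an unadjusted p under 0.05, as did 13.7% of all genes. The transcripts of the members gave 0 calls among the 21 tested, against 0.0144% of all transcripts, and 3 had an unadjusted p under 0.05, all higher in mutants, against 3.75% of all transcripts. These were Pdgfra-201, Cspg4-204 and Sox10-201. In simulated data the transcript test called 2% of log2 changes of 0.5 and 13% of changes of 1. The gene test called 45% and 68%. A lack of calls therefore does not show a lack of change. The 9 genes are not independent of one another, since cells of 1 lineage share them.

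The members lined up by library set. Their median log2 fold change between genotypes was 0.21 with genotype alone and 0.03 with the set in the fit. All 9 were higher in set 1 than in set 2 in the fit with both terms, as were 49.1% of all genes, and 6 of them by more than 0.2 on the log2 scale, as were 22.9% of all genes. The 6 were Cspg4, Olig1, Olig2, Sox10, Nkx2-2 and Gpr17, at 0.21 to 0.98. Pdgfra and Mbp differed by 0.03 and 0.04 between the sets. Within both sets 4 of the 9 were higher in mutants, against 26.4% of all genes. For Olig1, among the 4, the difference was 0.01 in each set. In each set the comparison rests on a single library of 1 genotype.

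**Figure D3:**
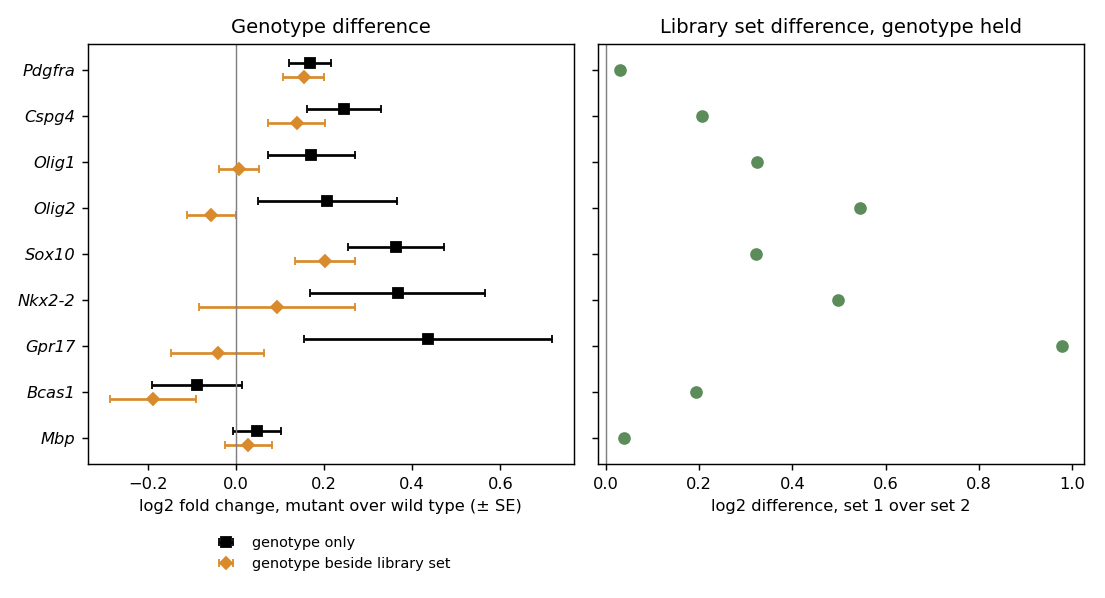
Log2 fold change of mutant over wild type for each lineage gene from edgeR, with genotype alone and with the library set as a second term, and the log2 difference of set 1 over set 2. Points are estimates and bars their SE where drawn. Gpr17 stands at 0.43 with genotype alone, at -0.04 with the set in the fit and at 0.98 between the sets, while Pdgfra stands at 0.17, 0.15 and 0.03.

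The balance of precursor to myelin genes was read within each library as the mean log2 TPM of Pdgfra and Cspg4 minus that of Mbp. It was -0.74, -0.31, -0.42 and -0.47 in mutant libraries, against -0.49, -0.64, -0.68 and -0.70 in wild-type libraries. Mutants 2 to 4 lay above every wild-type library, and mutant 1 lay below all of them. Mean levels were -0.49 ± 0.18 in mutants, against -0.63 ± 0.09 in wild type (SD, n = 4 each), and the difference of 0.14 is about the size of the spread between libraries. Left without mutant 1 the difference was 0.23, and without mutant 2 it was 0.083, over 1.5 times either way. With Pdgfra alone as the precursor gene it was 0.07, and with coding transcripts only 0.095. Against the classic Mbp transcripts alone the difference was 0.03, with values of 1.00, 2.71, 2.39 and 2.23 in mutants, against 2.24, 2.11, 1.94 and 1.91 in wild type. This balance is a score over members and was given no test.

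On the per-length TPM scale the order of the levels was close to the same in both genotypes. Olig1 was highest, at 77.9 ± 9.90 TPM in mutants, against 66.8 ± 11 TPM in wild type (SD, n = 4 each). Olig2 at 26.6 ± 4.72 TPM and Pdgfra at 24.0 ± 1.3 TPM followed in mutants, against 22.3 ± 6.37 and 21.1 ± 1.96 TPM in wild type, and their ranges overlap in both. Mbp came next, at 19.5 ± 2.43 TPM in mutants, against 17.8 ± 0.76 TPM in wild type. In mutants its range met that of Pdgfra, and in wild type it did not. Sox10 and Cspg4 overlapped in both genotypes, at 10.1 ± 1.19 and 7.99 ± 0.80 TPM in mutants, against 7.82 ± 1.6 and 6.34 ± 0.58 TPM in wild type. Cspg4 met the range of Gpr17 in mutants and stood apart from the gene below it in wild type. Gpr17 and Bcas1 changed places, at 5.53 ± 1.82 and 4.73 ± 0.83 TPM in mutants, against 3.95 ± 1.83 and 4.70 ± 0.45 TPM in wild type, with overlapping ranges each time. Nkx2-2 was last, at 2.49 ± 0.66 TPM in mutants, against 1.86 ± 0.37 TPM in wild type, apart from the gene above it.

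Wider lists of the lineage gave the same picture of small differences with no calls. The 5 lists hold 78 genes, the members included, of which 72 were tested. Of these, 47 (65.3%) had a fold change above 0, as did 50.3% of all tested genes. Their median was 0.09 against 0.00 over all genes. With genotype alone edgeR called 0 of them, against 0.0199% of all genes, and with the set 0, against 0.602%. At an unadjusted p under 0.05 (edgeR) there were 15 higher and 3 lower in mutants. Of all genes, 13.7% were under 0.05 in either direction, and 6.89% were under 0.05 and higher in mutants. Only DESeq2, which called Gpr37l1, and the fit without mutant library 4, which called 4 genes, gave any call in these lists among the alternatives run. The 4 were Sox10, Cnp, Gpr37l1 and Notch1, a receptor that holds precursors back from maturing, at log2 fold changes of 0.43, 0.39, 1.02 and -0.26 and adjusted p of 0.0483, 0.0328, 0.0252 and 0.0328 (edgeR). In that fit 3.37% of all genes were called, and the 4 are of 74 list genes tested there.

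Among the 13 precursor genes, 9 were above 0 with a median log2 fold change of 0.16, against 50.3% of all genes above 0. An unadjusted p under 0.05 (edgeR) was found for 6, all higher, against 6.89% of all genes in that direction. Gpr37l1, a G protein-coupled receptor of glia, had 2.66, 3.10, 3.31 and 1.53 CPM in mutant libraries, against 1.82, 1.31, 1.25 and 1.6 CPM in wild-type libraries. Mutants 1 to 3 lay above every wild-type library and mutant 4 among them. Its log2 fold change was 0.83 ± 0.23, with an adjusted p of 0.233 in edgeR and 0.0331 in DESeq2. With the set in the fit it was 0.46 ± 0.18 (adjusted p = 0.269, edgeR), and it was 0.71 within set 1 and 0.15 within set 2. The summed level of the list was 550 to 606 TPM in mutants, against 495 to 585 TPM in wild type. Cspg5 alone gave 263 to 299 TPM of it in mutants and 237 to 255 TPM in wild type, so the sum follows that gene more than Pdgfra or Cspg4.

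Of 19 myelin genes 15 were tested, 11 of them above 0 with a median of 0.15, against 50.3% of all genes above 0. An unadjusted p under 0.05 (edgeR) was found for 5, all higher, against 6.89% of all genes in that direction. Gal3st1, which adds sulphate to the myelin lipid galactosylceramide, had 2.63, 2.31, 2.67 and 2.36 CPM in mutant libraries, against 1.90, 1.70, 1.67 and 2.06 CPM in wild-type libraries. Its mutant values lay wholly above the wild-type ones, as did those of 2.95% of all genes. The log2 fold change of Gal3st1 was 0.45 ± 0.12 with an adjusted p of 0.235 (edgeR). Cnp, an enzyme of myelin cytoplasm that precursors also carry, had 25.4, 23.0, 25.7 and 19.7 CPM in mutant libraries, against 20.7, 17.7, 19.1 and 17.7 CPM in wild-type libraries. The groups overlap at mutant 4, with a log2 fold change of 0.32 ± 0.09 and an adjusted p of 0.244, and 0.19 ± 0.06 with the set in the fit (adjusted p = 0.206, edgeR). Summed over the myelin list, the level was 106 to 118 TPM in mutants, against 89.8 to 108 TPM in wild type, ranges that overlap. Precursor and myelin lists thus had nearly the same median fold change, which was 0.11 and 0.13 with the set in the fit.

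The other 3 lists lay nearer to 0. For the counts that follow, 50.3% of all tested genes were above 0. Of 13 tested transcription factors 9 were above 0, with a median of 0.06 and -0.06 with the set in the fit. Sox10 was the 1 with an unadjusted p under 0.05 (edgeR), against 13.7% of all genes. Of 12 committed-stage genes 8 were above 0, with a median of 0.11 and 0.01 with the set. Tns3, a tensin of differentiating cells, had a log2 fold change of 0.16 ± 0.06 and Fyn, a kinase of the Src family, of -0.13 ± 0.06, with adjusted p of 0.275 and 0.348 (edgeR). Of 19 genes of signals that act on the lineage 10 were above 0, with a median of 0.00. Id2, an inhibitor of helix-loop-helix factors, was at -0.28 ± 0.08 and Adgrg1, an adhesion receptor that keeps precursors dividing, at -0.16 ± 0.05, with adjusted p of 0.246 and 0.248 (edgeR). Genes of the ventral forebrain, where the first precursors arise, had 3 of 8 above 0 with a median of -0.08. They are not specific to progenitors and include genes of interneurons, such as Lhx6. The smallest p-values were those of Lhx6 and Dlx2, at log2 fold changes of -0.15 and -0.26 with adjusted p of 0.276 and 0.304 (edgeR). Folds were larger for Sp8, at 0.52 in the other direction, and for Gsx2, at -0.29, with adjusted p of 0.359 and 0.446 (edgeR). Both were named after their values were seen. How far cells that express these genes bear on the lineage levels was not tested.

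**Figure D4:**
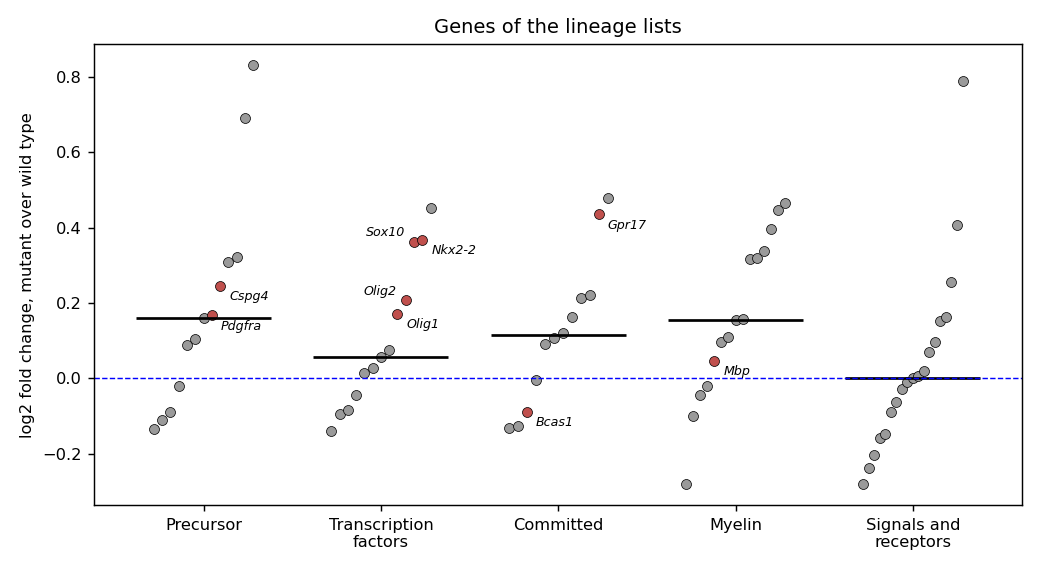
Log2 fold change of mutant over wild type (edgeR, genotype alone) for each tested gene of the 5 lineage lists. Red points are the 9 lineage genes, grey points the other genes of each list, black lines the list medians, and the dashed blue line the median of all genes tested. The precursor and myelin medians lie at 0.16 and 0.15, and the signal list at 0.00.

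The profiles of Pdgfra and Olig1 over the 8 libraries were set against those of 13955 genes by the mean absolute difference of their standardised log2 CPM. Nearest to Pdgfra were Sox13 at 0.139, Ahnak at 0.170, Dnah5 at 0.185, Prps2 at 0.193 and Mertk at 0.198. Among the members Sox10 ranked 96, Cspg4 473, Olig2 879 and Mbp 5710 by likeness to Pdgfra. Nearest to Olig1 were Gabrb1 at 0.0678, Trhde at 0.0685, a predicted gene, Rap1gap2 at 0.0772 and Tspyl5 at 0.0860. Gpr17 ranked 574, Olig2 719, Sox10 911 and Pdgfra 3933 by likeness to Olig1. With 8 libraries in 2 sets, many genes share such a profile, so the ranks are a description.

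In the authors' deposited table, which holds 24494 genes, 417 of 14991 genes with an adjusted p were under 0.05, and 0 of the 9 members were among them. The authors' deposited table gives log2 fold changes of 0.09 with a standard error of 0.07 for Pdgfra (adjusted p = 0.271) and of 0.13 with a standard error of 0.09 for Cspg4 (adjusted p = 0.134). For Sox10 the authors' deposited table has 0.04 (adjusted p = 0.568) and for Mbp 0.02 (adjusted p = 0.82). The other 5 members lie within 0.02 of 0 in the authors' deposited table, with Olig2 at -0.02 and Gpr17 at -0.0036, below 0, and Nkx2-2 at 0.0033. It is not known here whether these folds were shrunk. Unadjusted p-values of the authors were 0.135 for Sox10, 0.845 for Olig1, 0.841 for Gpr17 and 0.713 for Nkx2-2. DESeq2 with genotype alone gave 0.00167, 0.115, 0.229 and 0.0947 here, and edgeR with the set gave 0.0118, 0.866, 0.705 and 0.605. Against that DESeq2 fit, Pdgfra and Olig2 also had a larger p from the authors, and Cspg4, Bcas1 and Mbp a smaller one. The cause of these differences was not tested.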

How the data were processed

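Messenger RNA of mouse cortex was sequenced in 8 libraries, 4 per genotype. The submitters' processing notes name the GRCm38 build, DESeq2 and Salmon 0.12.0. Per the file headers, the authors deposited for each transcript an expected count (estimated reads) and a TPM, whose scale is per effective length. The authors' deposited table gives a mean normalized signal, log2 fold change, standard error and p-value per gene, per its file header. Salmon divides shared reads between transcripts by a model, so transcript levels are less certain than gene levels.

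Expected counts were summed per gene identifier and rounded. Genes were tested with edgeR 4.0.16 in R 4.3.3 (TMM, filterByExpr, quasi-likelihood F test, two-sided, genotype as the only term), with Benjamini-Hochberg adjustment over all 20097 genes and calls at an adjusted p under 0.05. Standard errors come from the fold and its F statistic. Values given with the set use the library set, drawn from the data, as a second term. Alternatives were DESeq2 1.42.0, limma 3.58.1 (voom, and log2 of TPM plus 0.5 or 0.1), other scalings and filters, length offsets, coding transcripts alone, a replicate block and leaving out each library. Levels are CPM after TMM scaling unless TPM is named.

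Mbp transcripts counted as upstream where they start over 10000 bases before the classic start. Named genes were all 9 members, of each wider list its called genes or otherwise the 2 with the smallest p, and the 5 genes nearest in profile to Pdgfra and to Olig1 at an average log2 CPM of at least 1, with predicted genes counted and not named. The values of 1 gene that this rule names are not reported here, though it stays in the list counts. Gene positions are from GENCODE M21. The scripts were tested on simulated data. The 9 genes, the lists and the tests were chosen with earlier results of these data known. Deviations of same-numbered libraries from their genotype means correlated at 0.24, -0.03, -0.08 and 0.32, positively in 2 of 4 pairs, so numbers were not taken as pairs.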

Additional observations from a re-analysis of the deposited data

Results flagged for a closer look

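In 42 groups of 4 values checked for 1 library far from the others, 6 had one, while chance gives about 1 in 20 groups. The checks overlap, since lineage genes vary together.

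Of these, 3 concern wild-type library 1 against the other wild-type libraries. Olig2 stood at 37.2 CPM there, with the others at 23.6 to 24.5 CPM, and the gap to the nearest was 0.930 of the group's range. Gpr17 stood at 18.8 CPM there, with the others at 8.67 to 10.1 CPM, a gap of 0.861 of the range. The summed TPM of the lineage transcription factor list was 211 in that library, also apart from the other wild-type libraries, with a gap of 0.838 of the range. Wild-type library 1 lies with mutants 1 to 3 on the first principal component of the other genes.

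Mutant library 4 was the low library for Sox10, at 11.2 CPM with the other mutants at 13.6 to 13.9 CPM, a gap of 0.887 of the range. It lies with wild-type libraries 2 to 4 on that component.

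Mutant library 1 stood apart in the classic Mbp transcripts, at 6.92 TPM with the other mutants at 2.28 to 2.82 TPM, a gap of 0.883 of the range. It also stood apart in the summed level of Schwann and neural crest markers, at 7.77 TPM with the other mutants at 1.89 to 2.85 TPM, a gap of 0.837 of the range. The cause of these values was not tested.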

How the results depend on the processing

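Of 170 fold changes of the 9 members under other settings, 167 kept their direction and their side of the threshold. With the library set as a term, Olig2 turned to -0.0555 and Gpr17 to -0.0409. Sox10 was called at 0.43 without mutant library 4. Nkx2-2 did not pass the strict filter of 5 CPM in 4 libraries. The number of all genes called was 4, and it was 406 with DESeq2, 13 with no filter on low counts, 121 with the set as a term, and 3 to 699 when single libraries were left out, the highest without mutant library 4. Members called ran from 0 to 1, lineage list genes from 0 to 4 (1 with DESeq2) and member transcripts from 0 to 0 when single libraries were left out. The precursor balance against Mbp ran from 0.083 to 0.226 in the same way, 0.083 without mutant 2 and 0.226 without mutant 1, and it was 0.0714 with Pdgfra alone and 0.095 with coding transcripts only. Fold changes without single libraries ran from 0.15 to 0.21 for Pdgfra, 0.20 to 0.30 for Cspg4, 0.31 to 0.46 for Sox10 and 0.31 to 0.76 for Gpr17, the last being furthest without wild-type library 1. Without that library Olig2 was at 0.39 and Olig1 at 0.26, with adjusted p of 0.0696 and 0.0845 (edgeR). The cause of these changes was not tested.

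With the replicate number as a block, 20 genes were called and 0 of the 9 members. An unadjusted p under 0.05 was found for 6 members and for 3979 of all 20097 genes (edgeR). With genotype alone it was found for 3 members and 2758 genes. The numbers were not taken to pair the libraries, and 2 of 4 mutant libraries correlated best with the wild-type library of their own number. No other call on a lineage gene changed under the block.

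Mutant libraries held fewer reads than wild-type ones, so genes of few reads, such as Nkx2-2 and the Schwann cell markers, were measured with more counting error in mutants.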

Other observations

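Erbb3, the neuregulin receptor of Schwann cells and of the lineage, had 1.78, 0.78, 2.62 and 1.98 CPM in mutant libraries, against 1.23, 1.09, 0.91 and 0.97 CPM in wild-type libraries. Its log2 fold change was 0.79 ± 0.29 (unadjusted p = 0.0207, adjusted p = 0.302) and 0.76 ± 0.31 with the set in the fit (adjusted p = 0.293, edgeR), and the groups overlap at mutant 2. Foxd3, a factor of the neural crest, had 0.28, 0, 0.74 and 0.68 CPM in mutants and 0.14, 0.08, 0 and 0.15 CPM in wild type, at no more than 27 reads in a library, and was not tested for that reason. Both were highest in mutant library 3 and next highest in mutant 4. These genes were chosen after their values were seen.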
